A study of Mus musculus with 194 samples.

Results

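The nucleus accumbens (NAc) and the dorsal striatum (DS) of mice exposed to cocaine were compared gene by gene in bulk 3′-RNA-seq libraries, which count tags from the 3′ end of transcripts. The central comparison held 30 libraries, beside 164 others in the series, namely the 14 NAc libraries and the 16 DS libraries of mice given cocaine once, with the time after injection as a covariate. All mice were male C57BL/6OLAHSD, 6 to 7 weeks old on arrival, and cocaine was injected intraperitoneally at 20 mg/kg. By the study's methods, daily saline injections came before the first cocaine, and activity was recorded in an open-field arena after injections. The 0 hr mice were taken from the home cage without treatment. In a change from 0 hr, cocaine therefore cannot be told apart from injection and the arena. In the acute experience, 0 hr mice were naive to cocaine and the others were taken 1, 2 or 4 hr after a single injection, with 4 libraries per time point in the DS and 3 or 4 in the NAc. In the repeated experience, written Chronic in the labels, 8 NAc and 17 DS libraries came from mice taken after the last of 5 daily injections, and the 0 hr mice had received 4. By the experiment number in the library names, 9 of these DS libraries were of experiment 16 and 8 of experiment 17, while all 8 NAc libraries were of experiment 17. Libraries with the same experiment and animal number in their names are called 1 mouse here, which the labels do not state. The main tests between structures did not use this number as a block. With only the repeated libraries whose number occurs in both structures, all of experiment 17, and that number as a block, 3100 genes were called higher in the NAc and 3062 in the DS, against 3136 and 3159 with all libraries. In the challenge experience, 15 NAc libraries from 14 mice and 15 DS libraries came from mice given cocaine again after 21 days of abstinence, and the 0 hr mice were abstinent. A further 8 DS libraries of the acute experience were sequenced in run0194 from mice that also had a library in run0090.

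Structure and sequencing run could not be told apart within any experience. By the run number that closes each library name in the labels, the acute NAc libraries were of run0010 and the acute DS libraries of run0090, and no run held both structures. A difference in level between structures was therefore described only for genes that were called in the acute comparison and had the same direction in the repeated comparison, the challenge comparison and the comparison of the same acute NAc libraries with the DS libraries of run0194. Genes whose change after cocaine differed between structures were chosen by the test of that difference instead. The repeated and challenge DS libraries shared run0230, and the acute and run0194 comparisons shared their NAc libraries, so the 4 comparisons are not independent of one another.

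The striatum is the main input nucleus of the basal ganglia, and most of its neurons are spiny projection neurons that release GABA and respond to dopamine. Projection neurons of the direct pathway carry the D1 receptor, and those of the indirect pathway carry the D2 receptor. The DS is known for its part in action selection and habit, and the NAc, its ventral counterpart, for its part in motivation and reward. Peptides such as dynorphin and enkephalin are made by the projection neurons themselves and act on receptors in the striatum and its targets.

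Library depth ranged from 1441582 to 5524281 counts in the acute DS libraries and from 2610155 to 3683464 in the acute NAc libraries, so a gene at 1 CPM (counts scaled to a fixed library total) rested on few tags per library. The projection neuron markers were abundant in both structures, with a summed level of 8703 to 11727 CPM in the acute NAc libraries and 15151 to 18904 CPM in the acute DS libraries. All 10 tested markers of these neurons were called higher in the DS by the rule above, as were 12% of all genes tested. Oligodendrocyte markers summed to 7297 to 9255 CPM in the NAc and 10666 to 14607 CPM in the DS, and 11 of 12 were higher in the DS. Markers of cortical excitatory neurons summed to 203 to 558 CPM in the NAc and 179 to 279 CPM in the DS, and 7 of 8 were higher in the NAc, as were 12.3% of all genes tested. None of these marker genes was at 0 throughout a structure. In bulk tissue, fewer cells of a type and less RNA per cell cannot be told apart.

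Of 11965 genes tested after acute cocaine, 4242 were called (edgeR adjusted p under 0.05 and fold change over 1.2), which is 35.5% of all genes tested. Of these, 2202 (18.4% of all genes tested) were higher in the NAc and 2040 (17%) in the DS. The repeated comparison called 6295 genes (51.9%), the challenge comparison 6441 (53.7%) and the run0194 comparison 7524 (62.4%). Of the acute calls, 2906 had the same direction in all 4 comparisons, with 1468 (12.3% of genes tested) higher in the NAc and 1438 (12%) higher in the DS. These were 68.5% of the acute calls and 24.3% of the genes tested. Over the 11760 genes tested in all 4 comparisons, 52.4% had a single sign throughout, called or not. In all, 1995 genes (16.7%) were called in the same direction in every comparison, and 324 (2.71%) also passed a fold change of 2 in each, with 191 higher in the NAc and 133 in the DS.

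The size of a run difference was measured in the 8 DS mice with libraries in both runs. There, 6607 of 11561 genes (57.1%) were called between run0090 and run0194, with a median absolute log2 difference of 0.349, against a median of 0.196 for NAc against DS after acute cocaine. Among the 2774 same-direction genes with a run value, the acute difference between structures exceeded the run difference in 2273, and among the 273 of them past a fold change of 2 in every comparison in 271. The selection largely fixes these counts, since it required the same direction, or that fold, against both DS runs, and they are given as a description only.

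**Figure D1:**
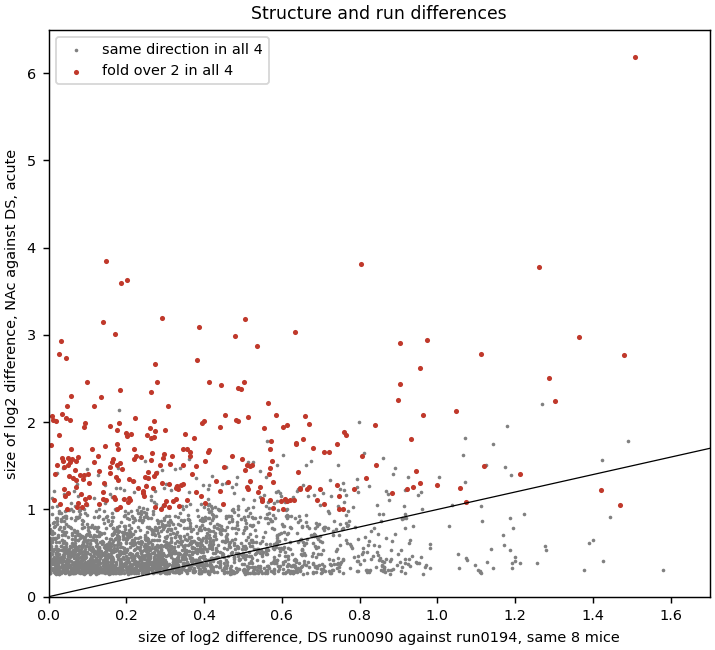
Each point is a gene with the same direction in all 4 comparisons. The x axis gives the absolute log2 difference between DS libraries of run0090 and run0194 in the same 8 mice, the y axis the absolute log2 difference between NAc and DS after acute cocaine, red points passed a fold change of 2 in all 4 comparisons, and the line marks equal values. The position of red points above the line is largely fixed by how they were selected.

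The largest acute differences toward the NAc were those of Trhr, Cartpt and Arhgap36. Trhr, the receptor for thyrotropin-releasing hormone (chromosome 15, 44196135 to 44235912, GRCm38, plus strand), measured 16.9, 27.1 and 38.6 CPM (lowest, median and highest) in the 14 acute NAc libraries. In the 16 DS libraries it measured 0.0, 0.0 and 1.05 CPM, from 17 counts in all, and the structures did not overlap. The log2 difference was 6.23 ± 0.22 (SE, adjusted p = 2.22e-26) and became 3.16 against the DS libraries of run0194, where Trhr measured 1.68 to 4.75 CPM. Cartpt, the precursor of the CART peptide (chromosome 13, 99898489 to 99901091, minus strand), measured 276, 327 and 435 CPM in the NAc and 2.02, 4.46 and 9.44 CPM in the DS. Its log2 difference was 6.18 ± 0.087 (adjusted p = 1.08e-40), and was 6.69 after repeated cocaine, 5.54 after challenge cocaine and 4.67 against run0194. Cartpt also differed between runs of the same DS mice, with a log2 difference of -1.51 for run0090 minus run0194.

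**Figure D2:**
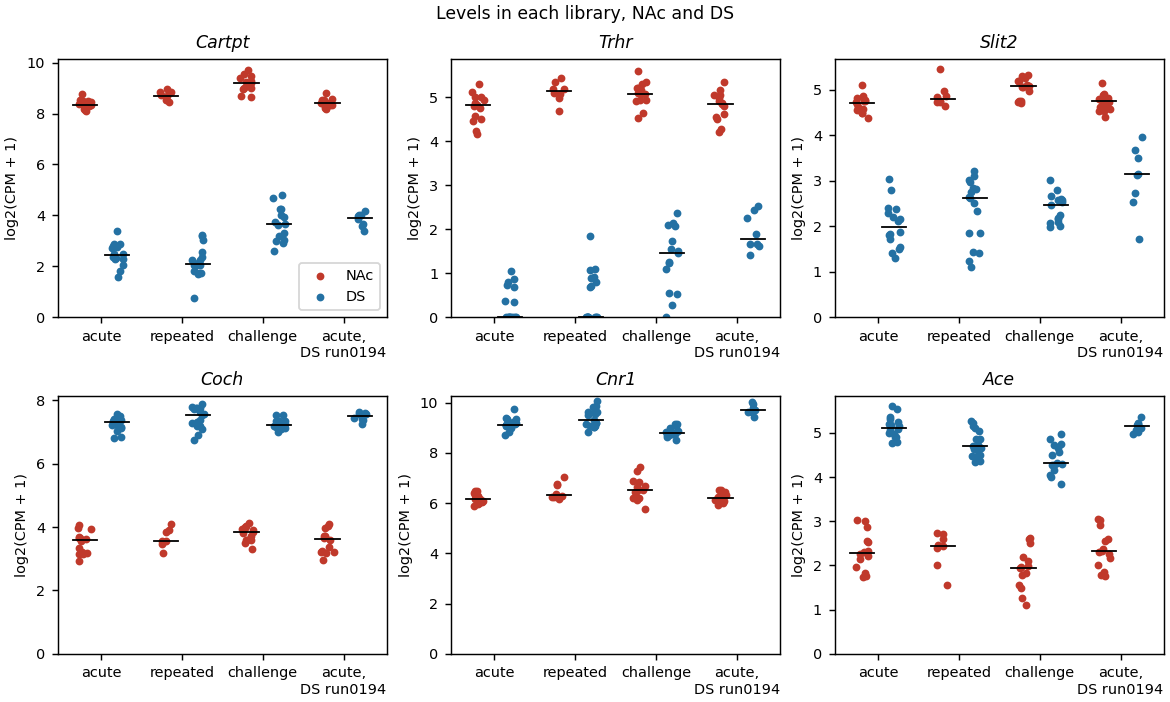
Each point is a library, placed by comparison on the x axis and by log2(CPM + 1) on the y axis, with NAc in red, DS in blue and a black line at the median. Cartpt, Trhr and Slit2 lie higher in every NAc library than in any DS library, and Coch, Cnr1 and Ace lie lower, in all 4 comparisons.

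The listed neuropeptide precursor genes were more often higher in the NAc than in the DS. All gene lists here were chosen with earlier results of these data known, so their counts are a description only. Of 19 tested precursors, 10 were higher in the NAc and 3 in the DS by the 4-comparison rule, beside 12.3% and 12% of all genes tested, with a median acute log2 difference of 0.44 beside a median of about 0 over all genes tested. Tac2, the neurokinin B precursor, measured 22.4, 37.0 and 46.8 CPM in the acute NAc libraries and 0.327, 1.43 and 9.13 CPM in the DS (log2 difference 4.33 ± 0.20, adjusted p = 2.89e-22). Nts, the neurotensin precursor, measured 44.1, 71.2 and 112 CPM in the NAc and 6.16, 9.75 and 17.1 CPM in the DS (log2 difference 2.91 ± 0.13, adjusted p = 5.89e-23). Neither gene overlapped between structures in any comparison. Crh, which encodes corticotropin-releasing hormone, was low in both structures, with medians of 7.09 and 0.523 CPM (log2 difference 3.72 ± 0.28, adjusted p = 4.69e-15).

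The opioid precursors went in opposite directions. Pdyn, which encodes prodynorphin, measured 371, 415 and 466 CPM in the acute NAc libraries and 90.9, 115 and 154 CPM in the DS (log2 difference 1.84 ± 0.053, adjusted p = 4.4e-29). Penk, which encodes proenkephalin, measured 2683, 3325 and 3725 CPM in the NAc and 3882, 4543 and 4892 CPM in the DS (log2 difference -0.48 ± 0.040, adjusted p = 9.86e-14). Neither gene overlapped between structures, and the log2 differences were 1.90, 1.24 and 1.68 for Pdyn and -0.63, -0.61 and -0.45 for Penk in the repeated, challenge and run0194 comparisons. Cort, the cortistatin precursor, had NAc and DS medians of 5.16 and 1.09 CPM (log2 difference 2.34 ± 0.29), and the acute ranges overlapped. Cck, the cholecystokinin precursor, ranged from 44.7 to 298 CPM in the NAc and from 38.1 to 143 CPM in the DS. Its log2 difference was 1.11 ± 0.24 (adjusted p = 0.000107), and within the 0 hr mice alone it was 0.75 with an adjusted p of 0.187. Cck is also abundant in cortical neurons, whose markers moved in the same direction, and their part in the result was not tested.

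Of 16 tested neuropeptide receptors, 10 were higher in the NAc and 2 in the DS, beside 12.3% and 12% of all genes, with a median acute log2 difference of 0.81. Besides Trhr, they included Cckbr, the cholecystokinin B receptor, at medians of 23.2 and 6.89 CPM (log2 difference 1.76 ± 0.13). Npy2r, a neuropeptide Y receptor, had medians of 9.35 and 3.14 CPM (log2 difference 1.65 ± 0.19), and its ranges overlapped in every comparison. Oprl1, the nociceptin receptor, had medians of 30.1 and 16.6 CPM (log2 difference 0.94 ± 0.078). On the other side, Tacr1, the substance P receptor, had medians of 15.5 and 34.9 CPM (log2 difference -1.15 ± 0.088), and its ranges were apart in the acute comparison alone. Each of these 4 receptor differences was called in all 4 comparisons.

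The listed imprinted genes, which are expressed mainly from the maternal or the paternal copy, were more often higher in the NAc than in the DS. Their list too was chosen with earlier results of these data known, so its counts are a description only. Of 27 tested, 10 were higher in the NAc and 1, Ppp1r9a, in the DS, beside 12.3% and 12% of all genes tested, with a median acute log2 difference of 0.26. Dlk1, a Notch ligand relative, measured 53.6, 91.0 and 136 CPM in the NAc and 2.25, 4.90 and 33.4 CPM in the DS (log2 difference 3.78 ± 0.19, adjusted p = 3.67e-21). Dio3, a deiodinase that inactivates thyroid hormone and lies in the same imprinted domain but was not on the list, had medians of 6.59 and 0.329 CPM (log2 difference 4.00 ± 0.29). Dlk1 did not overlap between structures in any comparison, whereas Dio3 overlapped in the run0194 comparison. Peg10 (medians 65.2 and 9.59 CPM, log2 difference 2.78 ± 0.13) and Nnat, which encodes neuronatin (1003 and 214 CPM, log2 difference 2.18 ± 0.083), were separated in all 4 comparisons. Ndn, which encodes necdin, differed less, at 640 and 448 CPM (log2 difference 0.54 ± 0.036).

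Genes of axon guidance ligands and their receptors were found on both sides. Slit2, a ligand of Robo receptors, measured 19.7, 25.3 and 33.6 CPM in the NAc and 1.47, 2.99 and 7.26 CPM in the DS (log2 difference 2.98 ± 0.13, adjusted p = 5.07e-23), without overlap in any comparison. Slit1 was also higher in the NAc (21.1 and 7.32 CPM, log2 difference 1.51 ± 0.13), and Robo2, which encodes a receptor of both, was higher in the DS (32.6 and 85.7 CPM, log2 difference -1.36 ± 0.051). Ntn1, which encodes netrin-1, had medians of 34.7 and 6.36 CPM (log2 difference 2.25 ± 0.12), and Unc5d, a netrin receptor gene, 23.2 and 4.95 CPM (log2 difference 2.25 ± 0.12). In all, 5 of 19 tested slits, robos, netrins and their relatives were higher in the NAc and 4 in the DS. Of 30 tested semaphorins, plexins and neuropilins, 11 were higher in the NAc and 4 in the DS. Over all genes tested these shares were 12.3% and 12%, and the DS share of the semaphorin group was near that of all genes. Nrp2, a semaphorin co-receptor gene, had medians of 22 and 3.08 CPM (log2 difference 2.62 ± 0.15), and Sema7a, a membrane-anchored semaphorin gene, 57.1 and 206 CPM (log2 difference -1.88 ± 0.059). In the same DS mice, the log2 difference of run0090 minus run0194 was -1.30 for Ntn1, -0.95 for Nrp2, -0.90 for Unc5d and -1.36 for Slit2, so each was higher in run0194.

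The remaining genes of the 15 with the largest NAc excess were Arhgap36, Fgf10, Glt8d2, AW551984, Zbtb7c, Baiap3 and Cbln4. Fgf10, a fibroblast growth factor gene, had medians of 12.9 and 0.451 CPM (log2 difference 4.51 ± 0.21). Cbln4, which encodes a cerebellin that organises synapses, had medians of 11 and 1.19 CPM (log2 difference 3.02 ± 0.22). Baiap3, which encodes a regulator of dense-core vesicle traffic, had medians of 150 and 17.8 CPM (log2 difference 3.15 ± 0.098), and Arhgap36 14.4 and 0.0 CPM (log2 difference 5.96 ± 0.35), from 11 counts in the DS. All 15 genes were separated between structures in the acute, repeated and challenge comparisons and 14 in the run0194 comparison, against 8.96%, 18.6%, 13.6% and 31.8% of all genes tested. Because these genes were taken for their size of difference, this separation is a description. Of the 15, only 5 were tested between runs, and all 5 were higher in run0194, with a median log2 difference of -1.26 for run0090 minus run0194.

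**Figure D3:**
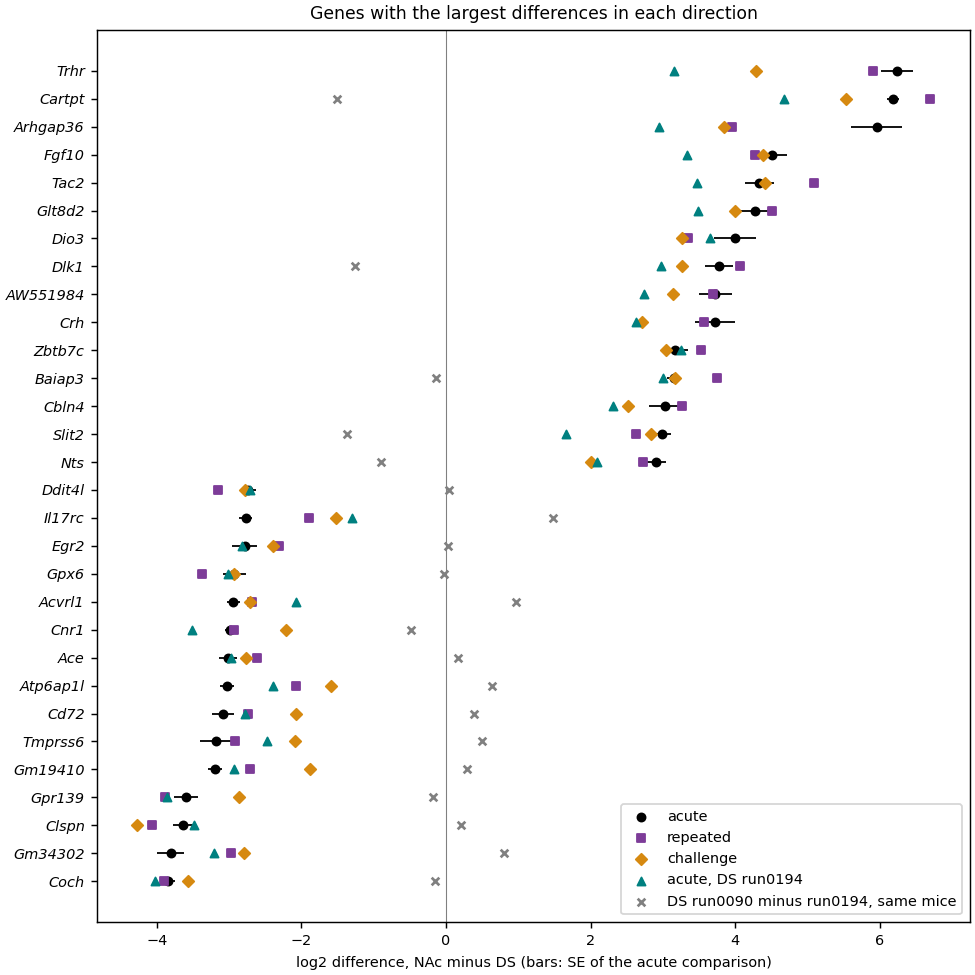
Rows are the 15 genes with the largest and the 15 with the most negative acute log2 difference among same-direction genes of at least 5 CPM, and the x axis gives the log2 difference, NAc minus DS, in each comparison, with SE bars for the acute one. Every value lies at least 1.31 from 0 on the side of the acute value, and grey crosses give the run difference where it could be tested, which reached 1.51 in size.

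On the DS side, the largest differences included Coch, Clspn, Gpr139, Ace and Cnr1. Coch, which encodes the secreted protein cochlin (chromosome 12, 51593341 to 51605771, plus strand), measured 112, 157 and 187 CPM in the DS and 6.57, 11 and 15.6 CPM in the NAc (log2 difference -3.84 ± 0.090, adjusted p = 1.91e-32). It stayed between -3.57 and -4.03 in the other comparisons, and its run difference was -0.15. Cnr1, which encodes the CB1 cannabinoid receptor (chromosome 4, 33924593 to 33948831, plus strand), measured 413, 556 and 861 CPM in the DS and 57.7, 70.6 and 88.8 CPM in the NAc (log2 difference -2.99 ± 0.072, adjusted p = 4.9e-32). Both genes were separated between structures in all 4 comparisons. Gpr139, an orphan receptor gene, had DS and NAc medians of 26.6 and 1.81 CPM (log2 difference -3.60 ± 0.16), and Ace, which encodes angiotensin-converting enzyme, 33.8 and 3.86 CPM (log2 difference -3.01 ± 0.12). Clspn, which encodes the checkpoint protein claspin, had medians of 22.4 and 1.90 CPM (log2 difference -3.63 ± 0.15), with a repeated value of -4.07 and a challenge value of -4.27.

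The other DS genes of this rank were Gm34302, Gm19410, Tmprss6, Cd72, Atp6ap1l, Acvrl1, Gpx6, Egr2, Il17rc and Ddit4l. Of the 15, 14 were separated between structures in the acute comparison, 14 in the repeated, 11 in the challenge and 13 in the run0194 comparison, against the same 8.96%, 18.6%, 13.6% and 31.8% of all genes tested. These genes too were taken for their size of difference, so this is a description. Il17rc, an interleukin-17 receptor subunit gene, differed between runs by 1.48 with the higher level in run0090, and its structure difference went from -2.77 against run0090 to -1.31 against run0194. Acvrl1, a receptor gene for bone morphogenetic proteins, likewise went from -2.94 to -2.07, with a run difference of 0.97. Of the 15, 11 were higher in run0090, the run of the acute DS libraries, and 4 in run0194, with a median run difference of 0.20. Egr2 differed by -2.78 ± 0.17, and its ranges, which span all 4 times after cocaine, overlapped in every comparison.

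Of 3 tested dopamine receptor genes, Drd1 and Drd2 were higher in the DS, and Drd5 (acute log2 difference 0.20) was not called in the acute comparison. Drd1 measured 257, 321 and 368 CPM in the acute DS libraries and 169, 202 and 226 CPM in the NAc (log2 difference -0.68 ± 0.045, adjusted p = 5.58e-17). Drd2 measured 328, 393 and 430 CPM in the DS and 143, 178 and 229 CPM in the NAc (log2 difference -1.11 ± 0.046, adjusted p = 6.56e-24). Drd1 and Drd2 were each separated between structures in all 4 comparisons, and the differences after repeated cocaine were -1.12 for Drd1 and -0.72 for Drd2. Of 20 tested signalling partners, 12 were higher in the DS and 2 in the NAc, beside 12% and 12.3% of all genes, with a median acute log2 difference of -0.45. Ppp1r1b, which encodes DARPP-32, had DS and NAc medians of 4522 and 2243 CPM (log2 difference -1.01 ± 0.040, adjusted p = 2.7e-24), and it was separated in all 4 comparisons, with a log2 difference of -0.41 against run0194 and a run difference of 0.61. Rgs4 and Rgs9 encode proteins that shorten G protein signals. Rgs4 measured 882, 1186 and 1391 CPM in the DS and 259, 291 and 322 CPM in the NAc (log2 difference -2.01 ± 0.047, adjusted p = 1.45e-32), with a run difference of 0.02, and Rgs9 differed by -0.92 ± 0.040. Rasd2, a striatal small GTPase gene, differed by -1.62 ± 0.048, and Arpp19, a phosphatase inhibitor gene, by -1.25 ± 0.042.

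Among enzymes that make or break down cAMP and cGMP, Adcy5, the main striatal adenylyl cyclase gene, had DS and NAc medians of 1609 and 863 CPM (log2 difference -0.90 ± 0.036). Of 6 tested adenylyl cyclases, 2 were higher in each structure, with Adcy2 (0.40 ± 0.061) and Adcy6 (0.52 ± 0.12) higher in the NAc. Of 15 tested phosphodiesterases, 6 were higher in the DS and 3 in the NAc, beside 12% and 12.3% of all genes. Pde10a, which encodes an enzyme enriched in projection neurons, had medians of 2093 and 951 CPM (log2 difference -1.21 ± 0.052). Pde1a, a calcium-activated phosphodiesterase gene, went the other way at 24.3 and 130 CPM (log2 difference 2.39 ± 0.064, adjusted p = 3.35e-30), without overlap in any comparison. Gnas, which encodes the stimulatory G protein alpha subunit, was also higher in the NAc (381 and 630 CPM, log2 difference 0.77 ± 0.044), whereas Gnal, its olfactory and striatal counterpart, was higher in the DS (744 and 557 CPM, log2 difference -0.39 ± 0.038, and -0.22 in the 0 hr mice alone). Gnal overlaps Chmp1b on its own strand and Gnas overlaps the antisense gene Nespas, so the counts of both are less certain.

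Genes of other receptors and of channels included members higher in either structure. In each pair of medians that follows, the NAc is given first. The serotonin receptor genes Htr1a (5.77 and 0.941 CPM, log2 difference 2.04 ± 0.19) and Htr1b (52.2 and 117 CPM, log2 difference -1.11 ± 0.065) went in opposite directions. Htr2c was higher in the NAc at 184 and 80.1 CPM (log2 difference 1.18 ± 0.044). P2ry1, a purine receptor gene, followed at 30.3 and 6.85 CPM (log2 difference 2.08 ± 0.11). Of 60 tested potassium channel genes, 14 were higher in the NAc and 18 in the DS, beside 12.3% and 12% of all genes, with a median acute log2 difference of -0.02. Past a fold change of 2 in every comparison were 5 of the 60, all higher in the NAc, beside 2.71% of all genes (191 higher in the NAc and 133 in the DS), among them Kcnip1 (81.8 and 16.1 CPM, log2 difference 2.35 ± 0.072) and Kcnc2 (24.9 and 6.76 CPM, log2 difference 1.97 ± 0.14). Among 37 calcium, sodium and HCN channel genes, 5 were higher in the NAc and 11 in the DS, and the NAc share is near the 12.3% of all genes. Scn4b, a sodium channel subunit gene, had NAc and DS medians of 485 and 1526 CPM (log2 difference -1.66 ± 0.046), and Cacna1g, a T-type calcium channel gene, 16.3 and 6.49 CPM (log2 difference 1.32 ± 0.11).

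**Figure D4:**
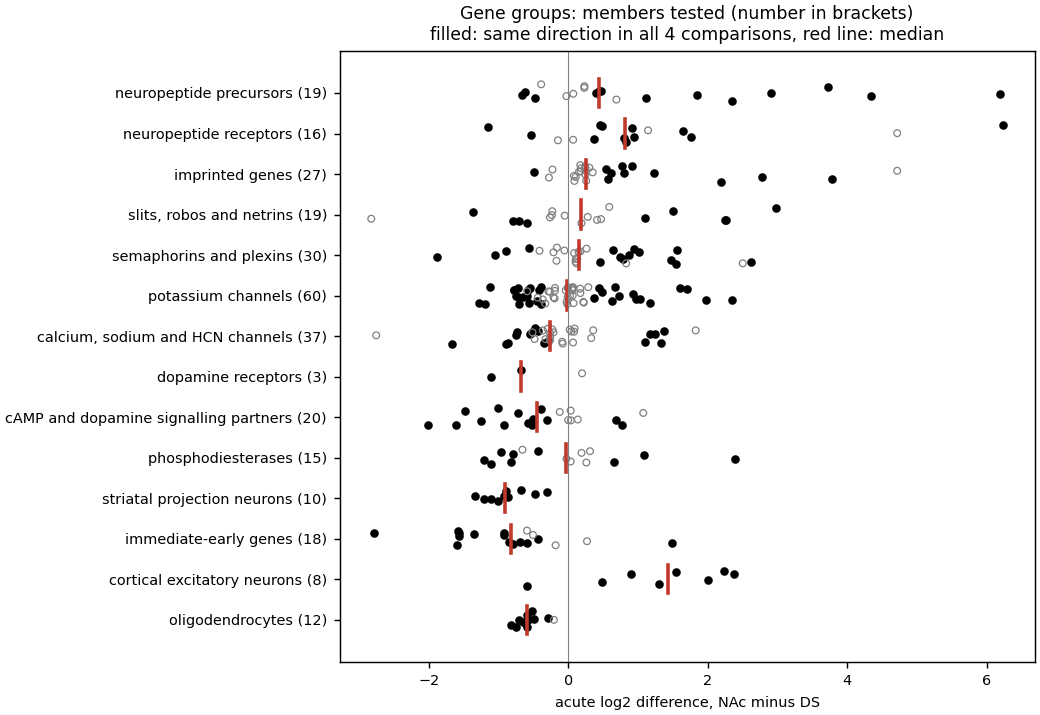
Each point is a tested member of a gene group, placed by its acute log2 difference, NAc minus DS, with filled points for the same direction in all 4 comparisons and a red line at the group's median. Peptide precursors and receptors and cortical neuron markers have medians above 0 (0.44, 0.81 and 1.43), and signalling partners, projection neuron markers, immediate-early genes and oligodendrocyte markers below 0 (-0.45, -0.91, -0.82 and -0.59).

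Of 53 striatal and telencephalic transcription factor genes, 10 were higher in the NAc and 12 in the DS, beside 12.3% and 12% of all genes. The median log2 difference was 0.09 in the acute comparison, -0.12 in the repeated, -0.42 in the challenge and -0.50 in the run0194 comparison, and the median run difference was -0.57. Meis1 (6.95 and 18.1 CPM in NAc and DS, log2 difference -1.51 ± 0.12), Ebf1 (5.10 and 10.8 CPM, -1.23 ± 0.12) and Pou3f1 (62.2 and 158 CPM, -1.37 ± 0.053) were higher in the DS. Foxp1, a forkhead factor gene of projection neurons, differed by -0.86 ± 0.051 against run0090 and by -2.03 against run0194, with a run difference of -1.11. Tshz2 (13 and 3.75 CPM, 1.78 ± 0.14) was higher in the NAc, as was Lmo1 of the LIM factor list (31.0 and 13 CPM, 1.24 ± 0.071). Of 14 retinoid genes, 4 were higher in each structure, beside the same shares of all genes. Aldh1a1, which makes retinoic acid, was higher in the DS (15.2 and 60.8 CPM, log2 difference -2.03 ± 0.084), as was the retinoid receptor gene Rxrg (139 and 285 CPM, -1.07 ± 0.055), and the retinol transport gene Stra6 was higher in the NAc (12 and 1.87 CPM, 2.67 ± 0.18).

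The striatum is also divided into patches called striosomes and the surrounding matrix. Of 9 tested striosome genes, 6 were higher in the NAc and 1, Kremen1, in the DS, beside 12.3% and 12% of all genes. The median log2 difference was 1.01 in the acute, 1.28 in the repeated, 0.46 in the challenge and 1.44 in the run0194 comparison. Lypd1 had NAc and DS medians of 207 and 70.1 CPM (log2 difference 1.51 ± 0.050), beside Pdyn, Kcnip1 and Nnat above. Of 6 matrix genes, 4 were higher in the DS, including Calb1, which encodes calbindin (209 and 413 CPM, log2 difference -0.96 ± 0.047), and Gng2 was higher in the NAc (0.98 ± 0.095). Direct pathway genes gave 1 of 7 higher in the NAc (Pdyn) and 3 in the DS, and indirect pathway genes 1 of 7 in the NAc (Upb1) and 4 in the DS, and the NAc counts are near the share of all genes. Among 13 genes known from the literature for ventral striatal expression, 11 were higher in the NAc and none in the DS, including Wfs1 (594 and 148 CPM, log2 difference 1.90 ± 0.073) and Crym (973 and 482 CPM, 1.03 ± 0.040). Of 7 known for dorsal expression, 4 were higher in the DS, including Reln, which encodes reelin (43.1 and 170 CPM, -2.05 ± 0.057), and Gpr155 (53.6 and 165 CPM, -1.60 ± 0.056), while Tmem132e was higher in the NAc (0.48 ± 0.071), a call lost in the 0 hr mice alone (0.27, adjusted p = 0.13 in edgeR). Like the other gene lists here, these 2 were drawn up with earlier results of these data known. The counts of any list here are therefore no separate evidence of direction.

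Markers of some other cells moved with structure as well. Slc17a7, the vesicular glutamate transporter of cortical neurons, measured 21.1, 81.8 and 316 CPM in the acute NAc libraries and 12.1, 21.1 and 55.2 CPM in the DS (log2 difference 2.38 ± 0.31, adjusted p = 1.25e-08). Its acute ranges overlapped and its NAc values were widely spread. Tbr1, a cortical transcription factor gene, followed with medians of 11.6 and 2.60 CPM (log2 difference 2.24 ± 0.29). After repeated cocaine the summed cortical markers were 302 to 678 CPM in the NAc and 174 to 224 CPM in the DS, and after challenge 373 to 996 and 182 to 284 CPM. Mbp, the myelin basic protein gene, measured 2888, 3420 and 3840 CPM in the NAc and 5099, 6015 and 7048 CPM in the DS (log2 difference -0.82 ± 0.040, adjusted p = 1.64e-21). The part of cortical neurons or of oligodendrocytes in the gene groups above was not tested. Astrocyte markers summed to 3987 to 4590 CPM in the NAc and 4099 to 5153 CPM in the DS, and of 12 tested, 4 were higher in the NAc and 1 in the DS, beside 12.3% and 12% of all genes. Beside the same shares, 3 of 9 GABA interneuron markers were higher in each structure. Of 9 microglial markers, 4 were higher in the DS and none in the NAc. Ependymal markers summed to 25.8 to 57.3 CPM in the NAc and 125 to 218 CPM in the DS after challenge, but none of 6 tested met the 4-comparison rule.

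Because the time points of a structure shared a run within the acute and repeated experiences, the change after cocaine could be followed within a run in each structure and then compared. The challenge NAc libraries were spread over run0006 and run0215. At 1 hr after acute cocaine, 12 genes changed in the NAc (0.0942% of 12744 tested) and 136 in the DS (1.07%). For 20 genes (0.157%) the change from 0 hr to 1 hr differed between structures, and in all 20 it was lower in the NAc. The count was 13 without the first 1 hr NAc replicate, 74 without a filter on low counts and 37 with a replicate block by the animal number in the labels. At 2 hr 1 gene (0.00785%) differed, Dnajb5, named after its values were seen (-1.13, adjusted p = 0.0105), and at 4 hr none did, with 1126 genes at an unadjusted p under 0.05.

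Immediate-early genes are switched on within minutes of neuronal activity without new protein synthesis, and many encode transcription factors. Of the 18 tested, 15 increased in the DS at 1 hr after acute cocaine and 9 in the NAc, beside 1.07% and 0.0942% of all genes that changed, with median log2 changes of 1.78 and 0.87. The change was lower in the NAc for 16 of the 18, with a median difference of -0.92 beside 0.004 over all genes. Of these differences, 5 passed the test, beside 0.157% of all genes. Another 6, of Egr1, Egr2, Arc, Fosb, Nr4a3 and Btg2, passed with the block by animal number, and the same 6 without a filter on low counts. Nr4a1, a nuclear receptor gene, measured 79.4, 84.6, 122 and 153 CPM in the 4 DS libraries at 0 hr and 474, 504, 520 and 615 CPM at 1 hr. In the NAc it measured 60.1, 66.1, 68.9 and 87.8 CPM at 0 hr and 106, 117, 127 and 156 CPM at 1 hr. All 1 hr values lay above all 0 hr values in both structures, although the NAc change did not pass the test (adjusted p = 0.212 in edgeR). The changes of 2.29 in the DS and 0.83 in the NAc differed by -1.45 ± 0.29 on the log2 scale (adjusted p = 0.0129). This call was lost with DESeq2 (adjusted p = 0.0665) and without the third 0 hr NAc replicate (0.0767) or the first 1 hr NAc replicate (0.0545).

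Fosl2, a Fos family gene, measured 17, 19.6, 21.8 and 22.5 CPM in the DS at 0 hr and 90.9, 124, 127 and 138 CPM at 1 hr. In the NAc it went from 19.8, 23.9, 24.7 and 25.8 CPM to 43.4, 46.4, 56.7 and 57.1 CPM. The structures overlapped at 0 hr and were apart at 1 hr, and the changes differed by -1.49 ± 0.29 (adjusted p = 0.0067). Tiparp, which encodes an ADP-ribosyltransferase, was at 9.84, 12.8, 18.1 and 22.6 CPM in the DS at 0 hr and at 61.9, 76.5, 77.8 and 78.5 CPM at 1 hr. Its NAc values were 15.3, 16.7, 17.7 and 18 CPM at 0 hr and 21.6, 26.6, 29.3 and 29.8 CPM at 1 hr, and the NAc change did not pass the test (adjusted p = 0.169 in edgeR). The changes differed by -1.58 ± 0.23 (adjusted p = 0.000357).

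Rnd3, which encodes a small GTPase, measured 3.63, 7.95, 11.8 and 15.5 CPM in the DS at 0 hr and 30.2, 43.4, 46.5 and 54.4 CPM at 1 hr. In the NAc the 4 values were 12.3, 13.1, 17.6 and 19.5 CPM at 0 hr and 10.4, 13.3, 16.2 and 20 CPM at 1 hr, which overlap throughout. The changes of 2.08 and -0.06 differed by -2.13 ± 0.34 (adjusted p = 0.000438). Arl5b, which encodes an Arf-like GTPase, had a similar course, from 6.53 to 12.4 CPM at 0 hr to 38.4 to 53.7 CPM at 1 hr in the DS, and from 12 to 18.1 CPM to 14.5 to 23.4 CPM in the NAc (difference -1.67 ± 0.30, adjusted p = 0.00239). Junb, another gene of the AP-1 family, was at 167 to 303 CPM and then 867 to 1161 CPM in the DS, and at 131 to 175 CPM and then 231 to 358 CPM in the NAc (difference -1.32 ± 0.20, adjusted p = 0.000357). Egr2 changed by 3.36 in the DS and by 1.86 in the NAc, and the difference of -1.50 ± 0.43 did not pass the test (adjusted p = 0.312), but did with the block by animal number (-1.46, adjusted p = 0.00669 in edgeR).

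**Figure D5:**
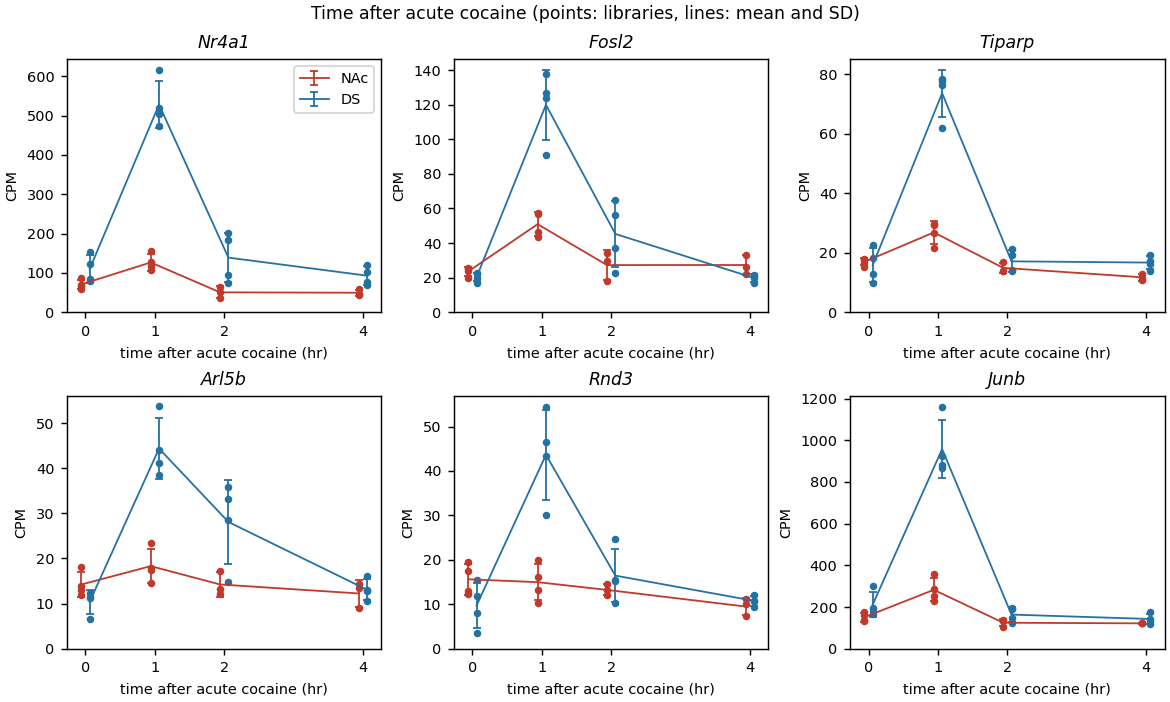
CPM is plotted against hours after acute cocaine for 6 genes, with a point per library, lines through the means and SD bars, NAc in red and DS in blue. At 1 hr every DS library lies above every NAc library for all 6 genes, and every DS library lies lower at 4 hr than at 1 hr.

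The promoters of these genes are shown because the genes moved together at 1 hr in the DS. The sequences are the 250 bases before the RefSeq start (GRCm38.p6), with capitals marking matches to TGACG on either strand, which is the core of the cAMP response element TGACGTCA, or to the CArG box bound by serum response factor. Both elements are known from immediate-early promoters. Matches to TGACG within TGACGTCA overlap it.
Rnd3, chr2:51149112-51149361, minus strand: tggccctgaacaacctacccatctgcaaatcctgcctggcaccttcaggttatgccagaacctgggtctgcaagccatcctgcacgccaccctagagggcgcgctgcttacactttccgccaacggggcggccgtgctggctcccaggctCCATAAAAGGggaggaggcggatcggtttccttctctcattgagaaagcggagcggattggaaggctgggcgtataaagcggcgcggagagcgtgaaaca
Arl5b, chr2:15055070-15055319, plus strand: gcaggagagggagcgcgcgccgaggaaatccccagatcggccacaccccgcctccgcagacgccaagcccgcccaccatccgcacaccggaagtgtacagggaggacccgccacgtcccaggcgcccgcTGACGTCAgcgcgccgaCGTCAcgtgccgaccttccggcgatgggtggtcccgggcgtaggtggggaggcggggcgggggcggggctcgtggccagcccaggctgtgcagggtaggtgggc
Nr4a1, chr15:101266596-101266845, plus strand: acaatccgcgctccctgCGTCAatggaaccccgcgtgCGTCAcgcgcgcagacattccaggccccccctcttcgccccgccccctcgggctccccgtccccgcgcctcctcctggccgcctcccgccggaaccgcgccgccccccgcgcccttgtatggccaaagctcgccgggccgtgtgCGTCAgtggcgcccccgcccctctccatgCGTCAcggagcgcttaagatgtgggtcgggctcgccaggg

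Nr4a1 held 4 TGACG matches, Arl5b 3, of which 2 formed a single TGACGTCA at 121 bases before the start, and Rnd3 held 1 CArG box at 100 bases before the start. Over 32851 promoters of the same length, 17.8% held TGACG, 1.55% TGACGTCA and 1.47% a CArG box. The windows of Fosl2 and Tiparp held none of these letters. The RefSeq starts of Arl5b, Nr4a1 and Fosl2 lie 5925, 12577 and 671 bases from the outermost GENCODE M21 start, so other promoters of these genes were not examined.

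After repeated cocaine, 15 of the 18 immediate-early genes increased at 1 hr in the DS (0.233% of all genes tested changed) and 1 in the NAc (0.0156%), and no difference between structures passed the test among 12848 genes (0.0%, with 425 at an unadjusted p under 0.05, and 0 with DESeq2, 11 without a filter and 11 with the block by animal number). Only 2 NAc libraries per time point entered there. After challenge cocaine, 14 increased in the DS (0.298%) and 3 in the NAc (0.0306%), and 3 genes differed between structures (0.0229%), namely Junb (-1.43 ± 0.22, adjusted p = 0.000529), Nr4a3 (-1.43 ± 0.28, adjusted p = 0.0294) and Slc25a25 (-0.95 ± 0.18, adjusted p = 0.0157), the last named after its values were seen. With the block by animal number 9 genes differed, and without a filter 13. The 3 challenge NAc libraries at 0 hr came from only 2 mice, 1 of them sequenced in both run0006 and run0215. The 1 hr NAc group also held both runs. Run was not a term of this test, so time and run are not fully separated in the challenge NAc. For all 20 genes called after acute cocaine the difference was negative in both other experiences, with medians of -0.61 and -0.69 against -1.15 after acute cocaine. Over all genes tested the median difference was about 0 in each experience. Whether the experiences differed in this respect was not tested.

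Over all time points, immediate-early genes were higher in the DS as well. Of the 18, 13 were higher in the DS and 1, Nr4a2, in the NAc, beside 12% and 12.3% of all genes. Of these 14, 9 were called in all 4 comparisons, as were 16.7% of all genes. The median log2 difference was -0.82 in the acute, -0.39 in the repeated, -0.68 in the challenge and -1.11 in the run0194 comparison. Egr3 measured 206, 409 and 500 CPM in the DS and 95.5, 122 and 145 CPM in the NAc (log2 difference -1.58 ± 0.074, adjusted p = 5.46e-22) and was separated in all 4 comparisons. Egr1 (medians 410 and 158 CPM, -1.56 ± 0.085), Egr4 (79.9 and 42.9 CPM, -1.59 ± 0.12) and Arc (157 and 64.3 CPM, -1.57 ± 0.15) were higher in the DS with acute ranges that overlapped. In the 0 hr mice alone the log2 difference was -0.76 for Egr4, -1.04 for Arc, -1.73 for Egr2, -0.58 for Nr4a1 and -0.42 for Junb.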

How the data were processed

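The authors deposited whole-number counts of unique molecules per gene from 3′-RNA-seq, aligned with STAR to GRCm38 and counted with HTSeq according to the submitters' notes and the study's methods. Groups and runs were taken from the labels, and the challenge NAc mouse sequenced in 2 runs was summed. Genes were filtered with filterByExpr, scaled by TMM and tested with edgeR's quasi-likelihood test (version 4.0.16, R 4.3.3) with time and structure as terms. A gene was called at a Benjamini-Hochberg adjusted p under 0.05 and a fold change over 1.2. Positive log2 values are higher in the NAc, and levels are CPM. Structure by time was tested as an interaction. Run0090 and run0194 were compared with mouse as a block. No column of per-sample values was left unmapped.

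The genes named are the 15 with the largest and the 15 with the most negative acute difference among same-direction genes with a mean of at least 5 CPM in the higher structure, members of 49 gene lists, and the 5 genes with the largest 1 hr difference among those called. Members and lists were chosen with earlier results of these data known. Replicates are the separate samples of the labels. Libraries of both structures carry the same animal numbers within an experience, and by the study's methods mice were fewer than libraries, so values with a block by that number are given where they change a call or count. On simulated counts, the acute test recovered 192 of 200 changed genes with 3 false calls, and structure by time 35 of 100 at a fold of 1.5 and 74 of 100 at a fold of 2. The simulated libraries were independent and held no run effect, so these false calls do not measure those that run differences could give. Alternatives were RLE scaling, DESeq2 1.42.0, no filter, a fold of 2, thinned counts, 0 hr mice only, replicate blocks and leaving out libraries. Depth is given with the results, and counting error limits genes near 1 CPM. Coordinates are of GRCm38 (GENCODE M21), and 327 of 327 named symbols matched. Other structures of the series, and DS libraries of run0194 from repeated and challenge mice, were not used here. A withheld item is not reported here.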

Additional observations from a re-analysis of the deposited data

Results flagged for a closer look

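In 96 groups of 4 to 10 values examined for a sample far from the others, 9 had one, and chance gives about 1 in 20 groups. After repeated cocaine, the second 1 hr NAc replicate was highest for Atp6ap1l at 15.99 CPM (nearest 9.679) and Slit2 at 43.02 CPM (nearest 30.57), and lowest for Dlk1 at 57.63 CPM (nearest 78.17). The first 1 hr NAc replicate was highest for Cbln4 at 27.19 CPM (nearest 17.02), Egr2 at 16.01 CPM (nearest 6.775) and Gm19410 at 8.158 CPM (nearest 4.828). These NAc groups hold all 4 times. The second 4 hr replicate was highest for Tmprss6 at 2.509 CPM (nearest 1.287). In the DS libraries of run0194, the second 4 hr replicate was highest for Fgf10 at 2.919 CPM (nearest 1.519). After acute cocaine, the first 1 hr DS replicate was lowest for Tiparp at 61.9 CPM (nearest 76.5).

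The change from 0 to 1 hr differed between structures by an interaction test in edgeR. After acute cocaine the log2 difference, NAc minus DS, was -2.134 for Rnd3, -1.672 for Arl5b, -1.584 for Tiparp, -1.485 for Fosl2 and -1.454 for Nr4a1. After challenge cocaine it was -1.428 for Junb, -1.431 for Nr4a3 and -0.953 for Slc25a25. The acute changes were each followed within a run, while the challenge NAc libraries were spread over run0006 and run0215. The runs still differed between structures, so structure and run cannot be fully told apart in these differences.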

How the results depend on the processing

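Of 5849 values of single genes under the alternatives, 5809 kept their direction and their side of the threshold, and of 285 counts 259 stayed within 1.5 times. With a fold change over 2, the genes higher in the NAc and in the DS numbered 348 and 236 (acute), 534 and 432 (repeated), 434 and 422 (challenge), 640 and 646 (run0194), and 309 and 208 with the same direction. In an alternative chosen after seeing the data, 191 and 133 passed a fold change of 2 in all 4 comparisons, and 1001 and 994 were called in all 4. With 0 hr mice only, the numbers were 1311 and 1195 (acute), 2067 and 2007 (repeated) and 1927 and 1949 (challenge), from fewer samples, and 7 named genes lost their acute call (Cck, Grik1, Ebf4, Zim1, Tmem132e, Neurod6 and Nrn1).

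Genes whose 1 hr change differed between structures were 12 with a fold over 2 after acute cocaine, and 74, 11 and 13 without a filter after acute, repeated and challenge cocaine, and the cause was not tested. With a replicate block by animal number they were 37, 11 and 9. The labels do not state that a shared number names 1 mouse. Deviations of same-numbered libraries correlated at -0.112 to 0.137 (acute), 0.0526 to 0.16 (repeated) and -0.048 to 0.296 (challenge), and 8 of 14, 8 of 8 and 8 of 14 correlated best with their own number. Each repeated time point held only 2 such numbers, so their deviations mirrored each other and the 8 outcomes are not independent. These counts are a description. With this block the acute structure counts were 2199 and 1999, and those with the same direction 1413 and 1363.

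Leaving out a library (a whole replicate number in the repeated and challenge comparisons) gave 2152 to 2306 genes higher in the NAc and 2003 to 2062 in the DS (acute), 1445 to 1542 and 1405 to 1471 with the same direction, 2899 to 3056 and 2794 to 3213 (repeated), 2963 to 3191 and 3045 to 3130 (challenge), and 3728 to 3768 and 3724 to 3759 (run0194). For the acute 1 hr difference it gave 13 to 28 genes, 13 without the first 1 hr NAc replicate, and for run0090 against run0194, 6496 to 6658. With this block and without a filter, the 1 hr differences of Egr1, Egr2, Arc, Fosb, Nr4a3 and Btg2 gained a call. The uncalled 1 hr differences of Npas4 (-0.451 to 0.305) and Ier2 (-0.903 to 0.0901) changed sign, and Per1 lost its call without the first 1 hr NAc replicate (-0.623, adjusted p = 0.0601 in edgeR). Libraries with the fewest counts limit genes near 1 CPM.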
